A study of Rattus norvegicus with 5 samples.

Results

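The genes of cholesterol and fatty acid synthesis were followed in primary rat hepatic stellate cells on Illumina bead arrays. The list holds 31 genes: 7 of the mevalonate pathway, 10 of the steps from squalene to cholesterol, 5 that control or carry sterols, 5 of fatty acid synthesis and 4 of fatty acid elongation and desaturation. Of the 31 genes 26 have a probe under their symbol in the platform annotation, and 23 of these reached a detection p under 0.01 on 1 or more of the 5 arrays and are called detected here. These 23 probes, 1 for each gene, are among 9737 detected probes of 22523 on the array.

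Stellate cells store vitamin A in the liver and turn into matrix-producing myofibroblasts in injured liver and in culture. All samples came from male Wistar rats aged 10 weeks. Calcitriol, which the treatment label writes as 1,25(OH)2D3, is the hormonal form of vitamin D and was given at 100 nM for 24 h to cells labelled day 3 (2 arrays). Vehicle cells were also labelled day 3 (2 arrays). Both were also set against 1 array labelled freshly isolated, with no treatment. The stated question was how vitamin D ligands act on the activated stellate cell. The labels do not say whether replicates were separate animals or cultures, or whether animals were pooled, so the p-values speak only to how far these arrays differ, and that spread may be technical.

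Cholesterol is built from acetyl-CoA by way of mevalonate, isoprenoids, squalene and lanosterol. The genes of this chain are switched on together by SREBP2, a membrane-bound transcription factor that SCAP escorts to the Golgi for cleavage when sterols are low and that INSIG proteins hold in the endoplasmic reticulum when sterols are high. SREBP1c, a product of Srebf1, does the like for fatty acid synthesis and is itself a target of the oxysterol receptor LXR. Oxysterols such as 25-hydroxycholesterol hold back SREBP cleavage and activate LXR.

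Many promoters of the members hold sequence features that the choice of genes did not use. RefSeq promoters (assembly GRCr8) matched 24 of the 31 genes, and the 250 bases before each start were searched on both strands. The CCAAT box, to which NF-Y binds beside SREBP sites, was found in 18 of the 24 (75%), against 34% of 33469 promoters. The GC box GGGCGG, bound by Sp1, was found in 20 of the 24 (83.3%), against 30.5% of all promoters. Of the 19 detected members with a promoter, 13 held a CCAAT box and 15 a GC box. The members' windows were also richer in G and C, with a median of 64.4% against 51.2%. Promoters of like G and C content, or those of all detected genes, were not compared. The shares are therefore not shown to be particular to the members. The exact letters of SRE-1, the SREBP site of the low density lipoprotein receptor gene, were in 0 of 24 windows and in 0.105% of all. Those of SRE-3, an SREBP site described in the farnesyl diphosphate synthase gene, were found in Fdps alone of the members and in 0.0359% of all promoters. Direct repeats of the receptor half-site AGGTCA were in 0 of the 24, both with a spacer of 4 bases, as LXR uses (0.00299% of all promoters), and with a spacer of 3 bases, as the vitamin D receptor uses (0.0209%). A match describes the letters only, and a missing one says nothing of the factor. None of these motifs overlaps another in the windows printed below.
The windows are shown for the first step (Acat2), for 2 isoprenoid steps and a late sterol step, and for Scd2, a desaturase gene outside the list that fell with calcitriol. They run 5' to 3' on the gene's strand, and capitals mark CCAAT boxes, GC boxes (each also as its reverse complement, ATTGG and CCGCCC) and the SRE-3 letters.
Acat2 (acetoacetyl-CoA thiolase), chr1:50100590-50100839, plus strand: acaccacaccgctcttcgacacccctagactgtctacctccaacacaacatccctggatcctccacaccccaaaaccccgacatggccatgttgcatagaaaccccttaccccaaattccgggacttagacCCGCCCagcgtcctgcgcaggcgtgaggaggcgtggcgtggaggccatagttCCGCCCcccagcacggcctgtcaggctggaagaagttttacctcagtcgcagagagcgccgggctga
Idi1 (isopentenyl diphosphate isomerase), chr17:66547525-66547774, minus strand: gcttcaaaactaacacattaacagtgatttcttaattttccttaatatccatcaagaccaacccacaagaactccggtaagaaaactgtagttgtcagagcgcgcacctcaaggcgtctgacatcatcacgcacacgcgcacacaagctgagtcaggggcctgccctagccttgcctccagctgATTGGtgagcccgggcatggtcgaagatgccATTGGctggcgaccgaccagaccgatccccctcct
Fdps (farnesyl diphosphate synthase), chr2:176804817-176805066, minus strand: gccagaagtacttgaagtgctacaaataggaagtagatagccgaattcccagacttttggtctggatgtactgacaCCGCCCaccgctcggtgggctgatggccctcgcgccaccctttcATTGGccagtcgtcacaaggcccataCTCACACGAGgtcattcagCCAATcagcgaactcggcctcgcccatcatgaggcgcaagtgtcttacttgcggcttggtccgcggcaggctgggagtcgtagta
Msmo1 (methylsterol monooxygenase), chr16:29746863-29747112, plus strand: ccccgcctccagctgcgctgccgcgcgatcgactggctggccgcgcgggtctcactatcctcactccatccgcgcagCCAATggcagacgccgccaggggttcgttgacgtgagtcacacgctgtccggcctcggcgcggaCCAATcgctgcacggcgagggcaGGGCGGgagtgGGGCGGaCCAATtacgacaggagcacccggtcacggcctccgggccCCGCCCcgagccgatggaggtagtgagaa
Scd2 (stearoyl-CoA desaturase), chr1:253118127-253118376, plus strand: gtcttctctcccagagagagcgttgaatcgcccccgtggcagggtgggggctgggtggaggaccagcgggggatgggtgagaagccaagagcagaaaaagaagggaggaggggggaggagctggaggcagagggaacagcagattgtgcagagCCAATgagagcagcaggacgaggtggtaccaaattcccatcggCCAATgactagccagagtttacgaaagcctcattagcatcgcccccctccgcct
Msmo1 holds 3 CCAAT boxes and Idi1, Fdps and Scd2 hold 2 each, while Acat2 holds none. GC boxes number 3 in Msmo1, 2 in Acat2, 1 in Fdps and 0 in Idi1 and Scd2. In Fdps the SRE-3 letters lie between its 2 CCAAT boxes.

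The arrays were alike in most respects. Between 8316 and 9112 probes were detected per array, and vehicle array 2 was the dimmest, with a mean signal of 608.2 against 738.5 to 854.8 on the others. The array labelled freshly isolated had values that raise doubt about its label, which was not tested. Cyp24a1, the enzyme that breaks down calcitriol and a direct target of its receptor, stood at a log2 level of 8.81 and 8.90 on the calcitriol arrays, at 5.12 and 4.84 on the vehicle arrays, where it was not detected, and at 8.09 on the array labelled freshly isolated. Over the whole array, calcitriol against it gave 0 called probes of 9737 in limma (649 at an unadjusted p under 0.05), while vehicle against it gave 149. Comparisons with that array are therefore comparisons with its label only, and it has no replicate. Of 12 stellate markers with a probe 10 were detected on some array, Dcn, Col1a1 and Col3a1 among them, while Gfap and Rgs5 were not. All 11 macrophage markers with a probe were detected on some array too. Of 12 hepatocyte markers with a probe 9 were detected on no array, Alb, Apob and Ttr among them. Fewer cells of a type and less RNA per cell cannot be told apart in such bulk samples.

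The signals of most members stood clear of the background. Of the 23 detected members 20 were detected on all 5 arrays, a probe mean rested on 24 to 60 beads, and the standard error of that mean was 4.81% of the signal at the median. Levels below are log2 intensities after background correction, an offset of 16 and quantile normalization, which compresses the changes of dim probes. Srebf2, the gene of SREBP2 itself, was detected on no array, with deposited signals of 100.4 and 122.4 with calcitriol, 107.7 and 100.0 with vehicle and 119.7 on the array labelled freshly isolated. Its lowest detection p was 0.0315, which made it the nearest member outside the threshold. Acaca, the acetyl-CoA carboxylase that commits carbon to fatty acids, and Elovl6, an elongase of palmitate, were not detected either (lowest detection p 0.138 and 0.526). Just inside the threshold were Acss2, a cytosolic acetyl-CoA synthetase, on calcitriol array 1 alone (p 0.0097), and the desaturase gene Fads2 on vehicle array 1 alone (p 0.00848). Elovl5, an elongase of polyunsaturated fatty acids, was detected on calcitriol array 1 and vehicle array 1. No probe name in the annotation matched Hmgcs1, Mvk, Lss, Insig1 or Fasn, which were not analysed here.

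**Figure D1:**
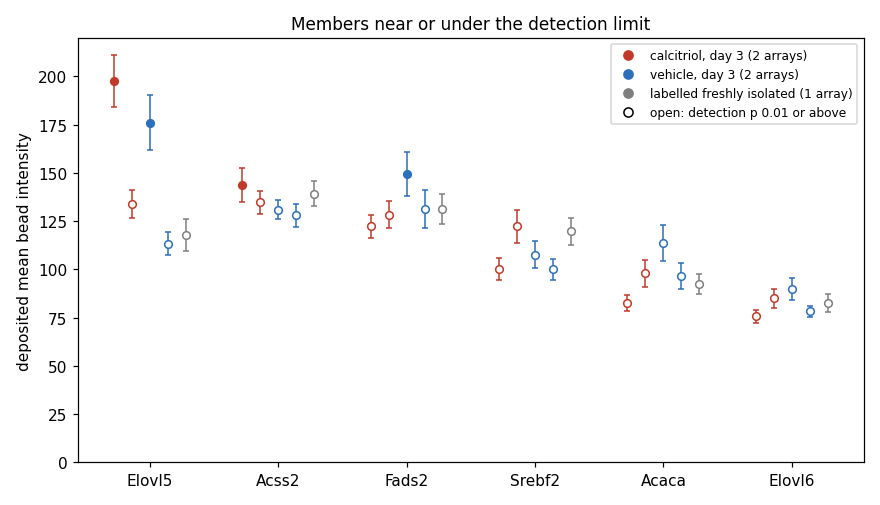
Deposited mean bead intensity (linear scale, bars are the standard error over beads) of the 6 members near or under the detection limit, for the 2 calcitriol, 2 vehicle and 1 freshly isolated arrays. Filled points have a detection p under 0.01. Elovl5 is bright on calcitriol array 1 (197.5) and vehicle array 1 (176.1) and dim on the other arrays, and Srebf2, Acaca and Elovl6 have no filled point.

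The first comparison asked whether calcitriol changed these genes in day 3 cells. Of the 23 detected members 0 rose and 0 fell at an adjusted p under 0.05 in limma's moderated test (Benjamini-Hochberg over 9737 probes), where 1.83% of all probes were called. At an unadjusted p under 0.05 there were 3 members, against 15.8% of all probes. The change was above 0 for 15 of 23 members, against 50.7% of all probes. The log2 changes ran from -0.38 to 0.43, with a median of 0.11 (0.08 over the 20 members detected on every array), against 0.00 over all probes. The median rested in part on vehicle array 2, without which it was 0.04. The 95% interval of the change, which covers the spread between arrays only and is not adjusted for the number of genes, lay within a 2-fold change either way for 21 of 23 members, against 88.4% of all probes. It lay within 1.5-fold for 12 of 23, against 49.9%. Both treated arrays lay above both vehicle arrays for 9 members and below them for 3, where 23.3% and 24.4% of all probes did so.

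**Figure D2:**
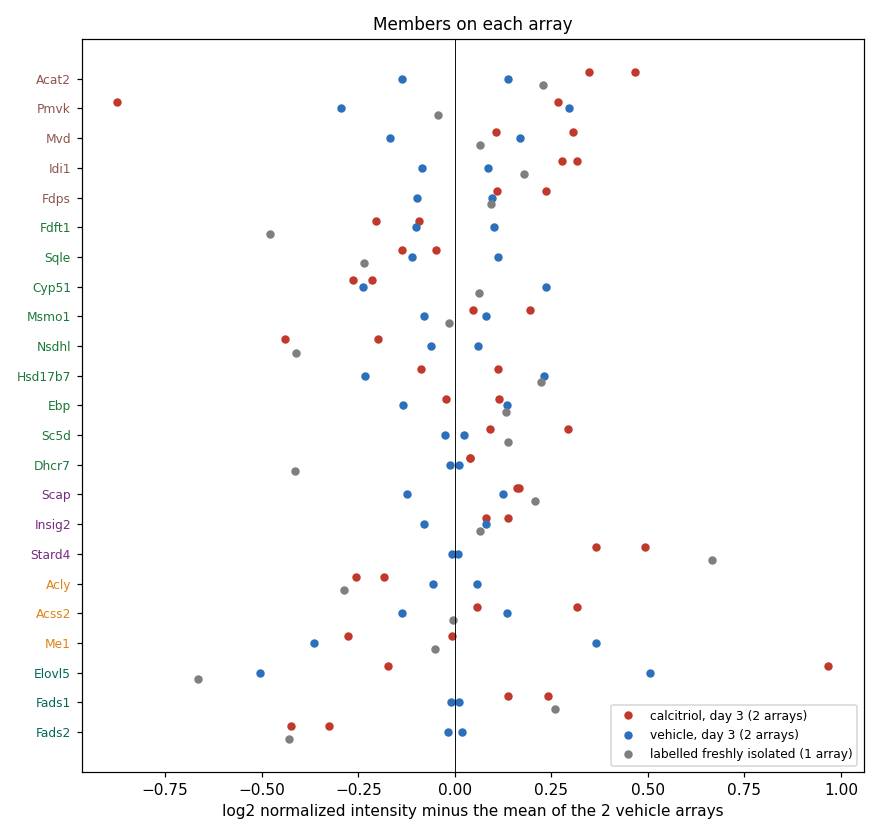
Level of the 23 detected members on each array, as log2 normalized intensity minus the mean of the 2 vehicle arrays (horizontal axis), with the calcitriol arrays above, the vehicle arrays in the middle and the array labelled freshly isolated below in each row. Gene names are coloured by role, from the mevalonate pathway at the top to elongation and desaturation at the bottom. Most points lie within 0.5 of the vehicle mean, and the replicates of Pmvk and Elovl5 lie farthest apart.

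The mevalonate pathway makes isoprenoid units from acetyl-CoA. Acat2 (probe ILMN_1361128), the thiolase that joins 2 acetyl-CoA molecules, had log2 levels of 10.95 and 11.07 with calcitriol, against 10.74 and 10.46 with vehicle. Both calcitriol arrays were above both vehicle arrays, by 0.41 ± 0.15 (SE, n = 2 per group), and the change did not pass (adjusted p = 0.279 in limma). Idi1, which isomerises isopentenyl diphosphate, stood at 8.80 and 8.76 with calcitriol, against 8.57 and 8.40 with vehicle. Here too the groups did not overlap, with a log2 difference of 0.30 ± 0.14 (adjusted p = 0.364 in limma). Fdps, which condenses these units to farnesyl diphosphate, showed 10.32 and 10.19 with calcitriol, against 10.18 and 9.98 with vehicle, a difference of 0.17 ± 0.14. Mvd, the mevalonate diphosphate decarboxylase, had 9.42 and 9.62 with calcitriol, against 9.15 and 9.48 with vehicle, so that the groups overlapped. Pmvk, the phosphomevalonate kinase, had replicates too far apart to place. It stood at 7.87 and 6.72 with calcitriol, against 7.30 and 7.89 with vehicle, and the interval of its change ran from -1.30 to 0.69.

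The steps from squalene to cholesterol had the median nearest to 0. The 9 detected members had a median log2 change of 0.01, from -0.32 to 0.19. Fdft1, squalene synthase, stood at 8.04 and 8.15 with calcitriol, against 8.35 and 8.15 with vehicle, and the groups overlapped. Sqle, squalene epoxidase and a rate-limiting step, stood at 9.17 and 9.26 with calcitriol, against 9.42 and 9.20 with vehicle. Its log2 change was -0.09 ± 0.14 with a 95% interval from -0.45 to 0.26, and it turned to 0.02 without vehicle array 1. Nsdhl, which acts with Msmo1 in the removal of sterol methyl groups, had the lowest log2 change of the group. Nsdhl had 7.86 and 8.10 with calcitriol, against 8.24 and 8.36 with vehicle, without overlap (log2 change -0.32 ± 0.15, adjusted p = 0.371 in limma). Msmo1 itself stood at 9.66 and 9.80 with calcitriol, against 9.69 and 9.53 with vehicle. Cyp51, the lanosterol demethylase, had a log2 change of -0.24 ± 0.19, and its vehicle arrays differed by 0.47. Sc5d, a late desaturase of the sterol ring, differed by 0.19 ± 0.14 and Dhcr7, the last enzyme on the way to cholesterol, by 0.04 ± 0.12. The sterol isomerase Ebp and the ketoreductase Hsd17b7 differed by 0.05 ± 0.15 and 0.01 ± 0.19.

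Among genes that sense or carry sterols, Stard4 had the largest change of all members. Stard4 (probe ILMN_1354580), a soluble carrier of cholesterol between membranes and itself a target of SREBP2, had log2 levels of 7.99 and 7.87 with calcitriol, against 7.51 and 7.49 with vehicle. The groups were well apart, by 0.43 ± 0.13 (1.35-fold, 95% interval from 0.11 to 0.75), yet the change did not pass over all probes (adjusted p = 0.202 in limma). Scap, the escort of SREBP, stood at 10.89 and 10.88 with calcitriol, against 10.85 and 10.60 with vehicle. Insig2, which retains SCAP in the endoplasmic reticulum, stood at 8.80 and 8.86 with calcitriol, against 8.80 and 8.64 with vehicle. Their differences of 0.16 ± 0.15 and 0.11 ± 0.13 were about as large as their standard errors.

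The genes of fatty acid synthesis were measured in part, since Fasn has no probe here and Acaca was not detected. Acly, which makes cytosolic acetyl-CoA from citrate and so feeds both pathways, stood at 10.03 and 10.11 with calcitriol, against 10.23 and 10.35 with vehicle. Both calcitriol arrays were lower, by a log2 change of -0.22 ± 0.13 (adjusted p = 0.47 in limma). Me1, the malic enzyme that yields NADPH, had 8.84 and 8.57 with calcitriol, against 9.22 and 8.49 with vehicle, and its vehicle arrays differed by 0.73. Acss2 had 6.10 and 5.84 with calcitriol, against 5.65 and 5.92 with vehicle, near the background.

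Of the desaturases, Fads1 and Fads2 lie near each other on rat chromosome 1 and act in turn on polyunsaturated fatty acids. Fads1 stood at 9.04 and 8.94 with calcitriol, against 8.79 and 8.81 with vehicle, a log2 change of 0.19 ± 0.13. Fads2 stood at 5.61 and 5.71 with calcitriol, against 6.05 and 6.02 with vehicle. Its log2 change was -0.38 ± 0.13 (adjusted p = 0.246 in limma), but Fads2 was detected on vehicle array 1 alone, and it entered the test through the group where it was higher. Elovl5 differed more between replicates than between groups, at 6.96 and 5.82 with calcitriol, against 6.50 and 5.49 with vehicle.

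**Figure D3:**
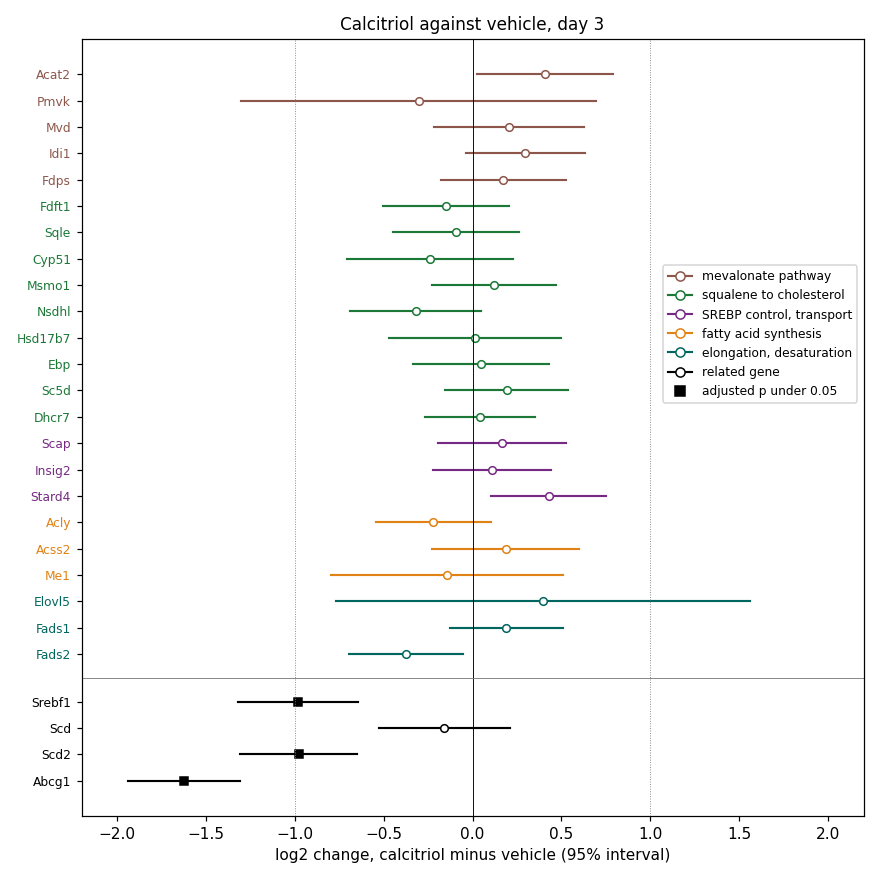
Log2 change with its 95% interval, calcitriol minus vehicle, of the 23 detected members (open circles, coloured by role) and, under the line, of the related genes Srebf1, Scd, Scd2 and Abcg1 (black). Filled squares have an adjusted p under 0.05 in limma, and dotted lines mark a 2-fold change. No member is a filled square, and Srebf1, Scd2 and Abcg1 lie at -0.98, -0.98 and -1.62.

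Genes around these pathways were counted apart. Their list was written with earlier results of these data known, so their count is no independent contrast to that of the members. Of 54 related genes 38 have a probe and 32 were detected, of which 4 fell and 0 rose at an adjusted p under 0.05 (0.657% of all probes fell and 1.17% rose). Without background correction 5 fell, Nr1h3 being added, and 1 rose, Rnf139. The 4 were Srebf1, Scd2, the cholesterol exporter Abcg1 and Ch25h, which makes 25-hydroxycholesterol. Srebf1 stood at 8.57 and 8.75 with calcitriol, against 9.61 and 9.67 with vehicle, and fell by 0.98 on the log2 scale (adjusted p = 0.035 in limma). Scd2 stood at 10.73 and 10.87 with calcitriol, against 11.82 and 11.74 with vehicle (log2 change -0.98 ± 0.13, adjusted p = 0.0338 in limma). Ch25h stood at 7.59 and 6.70 with calcitriol, against 11.25 and 10.78 with vehicle, and Abcg1 at 10.60 and 10.57, against 12.18 and 12.24. For these genes the treated and vehicle levels were far apart on both arrays of each group. The calls rest on few arrays. Those of Srebf1 and Scd2 were lost whichever of the cultured arrays was left out, while Abcg1 and Ch25h kept theirs without either vehicle array. Without either calcitriol array no probe of the whole array passed, so a call lost there does not mark these genes. With 1 array left out the log2 change ran from -1.06 to -0.90 for Srebf1 and from -1.05 to -0.91 for Scd2. It ran from -1.66 to -1.59 for Abcg1 and from -4.32 to -3.41 for Ch25h. Scd, another stearoyl-CoA desaturase gene near Scd2, had 8.17 and 7.97 with calcitriol, against 8.32 and 8.13 with vehicle, and its log2 change of -0.16 ± 0.15 did not pass. The LXR gene Nr1h3 stood at 10.07 and 9.94 with calcitriol, against 10.63 and 10.81 with vehicle (log2 change -0.72 ± 0.14, adjusted p = 0.087 in limma). Rnf139, a ubiquitin ligase of sterol control, stood at 8.98 and 9.25 with calcitriol, against 8.52 and 8.11 with vehicle (0.80 ± 0.19, adjusted p = 0.135 in limma). Set against the fall of Srebf1, the 95% interval excluded a fall of that size for 19 of the 20 members detected on every array. So it did for that of Scd2. The share of all probes that exclude such a fall was not computed, but 88.4% of all probes had an interval within 2-fold either way, which is another measure. The count is thus not shown to be a trait of the members. The exception was Pmvk each time. The 3 dimmer members are left out of this count, since changes near the background are compressed. The falls of Srebf1 and Scd2 were taken as fixed here, though their own intervals ran from -1.32 to -0.64 and from -1.31 to -0.65. A difference between the members and these genes was not tested.

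Summed marker levels of other cell types were set beside these values and not tested. The summed intensity of the 6 sinusoidal endothelial markers with a probe was 4176 and 4630 with calcitriol, against 6134 and 5720 with vehicle, and 3215 on the array labelled freshly isolated. It was lower on both calcitriol arrays, but of the 6 genes only 2 were detected on all 5 arrays, and Cdh5 was on none. The summed macrophage markers were 60850 and 61820 with calcitriol, against 56370 and 61400 with vehicle, and 58470 on the array labelled freshly isolated. The summed stellate markers were 50060 and 53080 with calcitriol, against 46580 and 47150 with vehicle, and 46340 on the array labelled freshly isolated, so they were higher on both calcitriol arrays. The part of these cells in the values above was not tested.

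The vehicle cells at day 3 were next set against the array labelled freshly isolated. In limma 0 of 23 members rose or fell, where 1.53% of all probes were called, and 4 had an unadjusted p under 0.05, against 13.9% of all probes. Stard4 again had the smallest p. It stood at 7.51 and 7.49 with vehicle, against 8.17 on the array labelled freshly isolated, a log2 change of -0.67 ± 0.16 (2 arrays against 1, adjusted p = 0.147 in limma). Fdft1 was higher at 8.35 and 8.15 with vehicle, against 7.77 on that array (0.48 ± 0.17, adjusted p = 0.318 in limma). Dhcr7 had 8.21 and 8.19 with vehicle, against 7.79 on that array (0.41 ± 0.15), and Nsdhl had 8.24 and 8.36, against 7.88 (0.41 ± 0.18). Acly had 10.23 and 10.35 with vehicle, against 10.00 (0.29 ± 0.16). Fads2 stood at 6.05 and 6.02 with vehicle, against 5.60 on that array, where it was not detected (log2 change 0.43 ± 0.16). Sqle had 9.42 and 9.20 with vehicle, against 9.08 on that array (0.23 ± 0.18). None of these passed. Both vehicle arrays lay above the array labelled freshly isolated for 7 members and below it for 6, where 36.9% and 36.6% of all probes did so. The 95% interval lay within 2-fold for 20 of 23 members, against 80% of all probes, and within 1.5-fold for 6 of 23, against 30.6%. The change was above 0 for 11 of 23, against 50.7% of all probes. The members' median log2 change was -0.06, against 0.01 over all probes, and it was 0.00 without vehicle array 2. Of the related genes, 2 of 32 were higher with vehicle in limma and 0 lower (0.483% and 1.05% of all probes). These were Abcg1, at 3.18-fold (adjusted p = 0.0185 in limma), and Ch25h (adjusted p = 0.0147 in limma), which the array labelled freshly isolated did not detect. For Ch25h the group means after background correction gave a bound of 29.1-fold. That bound leaves out the spread between arrays, and the 95% interval of the log2 change ran from 3.95 to 5.93. The size for Ch25h depends on the correction, with a log2 change of 4.94 as fitted and 3.87 without it. The calcitriol arrays are not in this contrast but enter the spread, and without either of them neither gene nor any other probe passed. Without calcitriol array 1 and 2 in turn, the log2 change was 1.66 and 1.67 for Abcg1 and 4.94 and 4.91 for Ch25h. Without vehicle array 2 Abcg1 did not pass, with a log2 change of 1.64. Srebf1 (log2 change 0.90 ± 0.17, adjusted p = 0.0829 in limma) and Scd2 (0.87 ± 0.16, adjusted p = 0.0844) did not pass here, but did without background correction (adjusted p = 0.00994 and 0.00703 in limma).

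The calcitriol cells were last set against the same array. In limma 0 of 23 members passed, as did 0% of all probes. At an unadjusted p under 0.05 there was 1 member, Dhcr7, against 6.67% of all probes. Dhcr7 stood at 8.24 and 8.24 with calcitriol, against 7.79 on the array labelled freshly isolated, a log2 change of 0.45 ± 0.15 (2 arrays against 1, adjusted p = 0.664 in limma). Fdft1 had 8.04 and 8.15 with calcitriol, against 7.77, and Cyp51 had 6.59 and 6.54, against 6.87. Elovl5 had the largest value, 1.06 ± 0.575, but was detected on calcitriol array 1 alone of these 3 arrays. Acat2 had 10.95 and 11.07 with calcitriol, against 10.83 on that array (0.18 ± 0.19). Sqle had 9.17 and 9.26 with calcitriol, against 9.08 (0.14 ± 0.18), and neither passed. Both calcitriol arrays lay above that array for 13 members and below it for 6, where 34% and 34.2% of all probes did so. The 95% interval lay within 2-fold for 21 of 23 members, against 86.1% of all probes, and within 1.5-fold for 12 of 23, against 38.6%. The change was above 0 for 15 of 23, against 49.6%. The members' median was 0.07, against 0.00 over all probes, and it was 0.10 without calcitriol array 1 and 0.04 without calcitriol array 2. The 3 comparisons share arrays, so their values for a gene are tied to each other. For Stard4 the log2 change was 0.43 for calcitriol against vehicle. It was -0.67 for vehicle and -0.24 for calcitriol, each against the array labelled freshly isolated. For Srebf1 the same changes were -0.98, 0.90 and -0.09, and for Scd2 -0.98, 0.87 and -0.11.

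**Figure D4:**
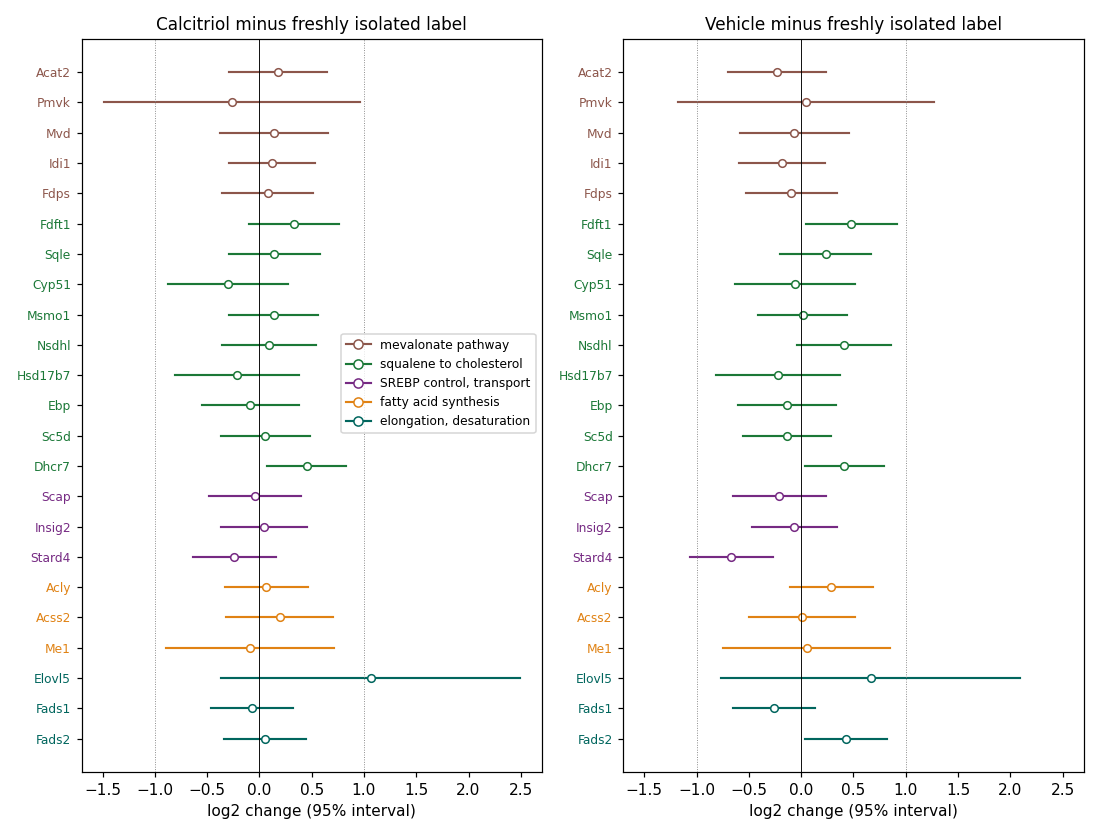
Log2 change with its 95% interval of the 23 detected members, for calcitriol (left) and vehicle (right) minus the single array labelled freshly isolated. Dotted lines mark a 2-fold change. The interval lies within 2-fold for 21 members on the left and for 20 on the right, and no member passed the adjusted test.

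The gaps between replicates were of the same order for the members as for all probes. The median absolute log2 gap between the 2 arrays of a group was 0.12 for the members with calcitriol and 0.20 with vehicle, against 0.16 and 0.17 over all probes. Pmvk and Elovl5 had the widest calcitriol gaps, 1.14 each, and Elovl5 the widest vehicle gap, 1.01. The most even member was Dhcr7, whose arrays differed by 0.00 with calcitriol and 0.02 with vehicle.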

How the data were processed

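Total RNA was labelled as biotin-cRNA and hybridised to Illumina arrays, per the labels' protocols, and GenomeStudio 2011.1 was used, per the submitters' processing notes. The deposited table gives for each probe a mean bead intensity with its standard error, a bead count and a p-value of detection, per the file headers. The deposited value table also holds linear intensity values. Its array medians of 115.7 to 115.9 are nearly equal, as after quantile normalization, which was not tested. Its values keep the rank order of the signals, and it served as an alternative.

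The deposited intensities were background corrected with limma's neqc (limma 3.58.1, R 4.3.3, negative controls inferred from detection p-values, offset 16), quantile normalized and put on a log2 scale. Probes with a detection p under 0.01 on any array were kept. One mean per group was fitted to the 5 arrays (lmFit, eBayes, 2 residual and 3.65 prior degrees of freedom), with two-sided tests adjusted by Benjamini-Hochberg over 9737 probes at 0.05. The fit was tested on simulated data. A bound on a fold sets the brighter group's mean against the mean, over the dimmer group's arrays, of the lowest detected level or the probe's own if higher. Values were printed for the 6 members of smallest p in each comparison and for Sqle, and other members are given by role. Related genes were printed where they passed or where the rule named them (Srebf1, Scd, Scd2). Nr1h3, Rnf139 and Cyp24a1 were added after their values were seen. Members, gene lists and this rule were chosen with earlier results of these data known. All arrays lay on 1 chip, and vehicle, calcitriol and the other array lay at separate positions, so position and group cannot be told apart. The number of arrays limits the precision. Alternatives covered background correction, offset, scaling, filter, variance trend, arrays in the fit, replicate block and each replicate left out.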

Additional observations from a re-analysis of the deposited data

How the results depend on the processing

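The count of called members was 0 under every alternative run for each comparison. The block and the fit to the cultured arrays were run for calcitriol against vehicle only. Where no probe of the whole array was called, as without either calcitriol array, a count of 0 members or related genes says nothing about stability. Leaving out 1 array moved the members' median log2 change between 0.0384 and 0.1151 for calcitriol against vehicle, and between -0.0648 and 0.0036 for vehicle and between 0.041 and 0.1029 for calcitriol, both against the array labelled freshly isolated. Related genes called with calcitriol against vehicle numbered 4 of 32. They numbered 0 to 2 with 1 array left out, 2 with the replicate number as a block, 5 with an offset of 50, and 6 each without background correction, with the authors' values and with a variance trend. With vehicle against the freshly isolated label they numbered 0 to 2 with 1 array left out, against 4 without background correction, 4 with an offset of 50, 4 with the authors' values and 5 with a variance trend. Under the block Srebf1 and Scd2 no longer passed (adjusted p = 0.0626 and 0.0669 in limma), while Abcg1 and Ch25h did and members called stayed at 0. The labels do not say that the numbers pair the samples, and the deviations of same-numbered arrays correlated at -0.11. Pairing them crosswise, chosen after seeing the data, gave 0 members, 4 related genes and 218 probes, against 127 with the numbers as labelled. The sign of the change turned with 1 array left out for 6 of 23 members in calcitriol against vehicle (Ebp, Elovl5, Hsd17b7, Me1, Pmvk and Sqle). It turned for 10 members in vehicle and for 4 in calcitriol against the freshly isolated label, counts added after seeing the data. The share of all probes whose sign turned was not computed, so these counts show nothing particular to the members. Of the genes that the naming rule gives for each comparison, those that turned were Sqle with calcitriol (-0.2039 to 0.0176), Scd with vehicle (-0.142 to 0.0561) and Srebf1 in calcitriol against the freshly isolated label (-0.171 to 0.003). Probes called over the whole array numbered 178 with calcitriol, against 684 with a variance trend, 489 without background correction and 0 without either calcitriol array. For vehicle against the freshly isolated label they numbered 149, against 506, 403 and 0, and for calcitriol against it 0, against 51, 35 and 0. The cause was not tested. Each member has 1 probe, so the choice of probes changed nothing. The count of related genes was added to the alternatives after seeing the data.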
